A study of Mus musculus with 4 samples.

Results

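The lineages described here are 22 lentiviral barcodes that had most of their untreated cells, or more than in any other cluster, in chromatin cluster 3 and were called in no eribulin-treated nucleus of the multiome assay. They were chosen by measured values. Each had at least 10 cells in the untreated multiome library, 0 cells in the eribulin multiome library, and more untreated multiome cells in cluster 3 than in any other cluster, with a tie settled for the lower cluster number. The 22 were found among 490 barcodes called in any library, 484 called in the untreated multiome library and 125 with 10 or more cells there. A barcode is named by the numbers of its short and its long part. Cluster 3 is 1 of 17 groups into which the authors sorted all cells by their accessible chromatin.

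The cells were PB3, a mouse mammary tumor line. The eribulin groups had been given 500 nM of the drug for 72 h and then 48 h without it, in 4 rounds, and the untreated groups had no drug. Each condition was assayed in run 1 by single-cell ATAC-seq (scATAC) and in run 3 by a multiome kit on single nuclei, of which the ATAC part is used here, with 1 library each and therefore no replicates. Nothing in the sources used here says how the line was infected, how long the cells grew before treatment, or whether both runs drew on the same culture.

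A lentiviral barcode is a short random-looking DNA tag that a virus inserts into the genome of an infected cell. All descendants of that cell inherit the tag, so cells with the same barcode form a lineage, and the number of cells with each barcode before and after a drug shows which lineages are still found. ATAC-seq marks accessible chromatin through the cuts of the Tn5 transposase. Eribulin binds the ends of microtubules and stops their growth, which arrests dividing cells in mitosis.

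Barcodes were called far more often in some libraries than in others. A single barcode was called in 4772 of 9583 untreated multiome nuclei (49.8%), in 1391 of 8114 eribulin multiome nuclei (17.1%), in 29 of 9361 untreated scATAC cells and in 84 of 16724 eribulin scATAC cells. Another 6622 eribulin multiome nuclei had no call, and a lineage could be present among them unseen. The names also differed in form: the untreated multiome barcodes were written without inner hyphens, and the eribulin ones with hyphens (1019 nuclei) or with the sequence added (372 nuclei). The multiome libraries had 123 cell barcodes in common, and 7 member cells were among them. In a check added after the data were seen, the rule without these cells finds the same 22 barcodes, and 65.1% of their 484 cells lay in cluster 3, against 65.2% of all 491. What this difference in calling does to the counts below was not tested.

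The sequences of the barcodes show how far apart the lineages lie as tags. All 22 were in the deposited list of designed barcodes, each 48 bases long with a short part of 14 bases, a linker of 4 bases (tggt) and a long part of 30 bases. The 6 largest lineages are shown with the short part in capitals, read 5′ to 3′ as listed.
69-89668: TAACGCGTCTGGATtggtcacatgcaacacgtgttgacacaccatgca
52-92557: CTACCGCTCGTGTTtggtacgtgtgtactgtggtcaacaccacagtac
75-57211: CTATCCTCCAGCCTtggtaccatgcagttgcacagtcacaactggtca
61-63448: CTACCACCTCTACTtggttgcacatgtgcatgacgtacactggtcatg
54-66684: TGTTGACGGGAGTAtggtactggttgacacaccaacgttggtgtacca
65-15834: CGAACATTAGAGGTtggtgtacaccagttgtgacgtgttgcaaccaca
The next 5 members repeat a short part of a larger one and differ from it in the long part.
52-59099: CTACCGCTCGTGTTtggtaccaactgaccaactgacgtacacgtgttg
52-78401: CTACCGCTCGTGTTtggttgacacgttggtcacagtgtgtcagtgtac
52-16742: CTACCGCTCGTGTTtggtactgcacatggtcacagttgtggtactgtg
69-97343: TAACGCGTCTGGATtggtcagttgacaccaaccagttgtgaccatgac
75-87979: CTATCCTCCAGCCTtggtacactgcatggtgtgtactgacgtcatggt
The last pair were the only barcodes based in cluster 3 with 10 or more untreated cells that were found after eribulin, and are shown for comparison.
55-23349: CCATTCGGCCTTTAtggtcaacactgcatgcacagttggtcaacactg
38-7217: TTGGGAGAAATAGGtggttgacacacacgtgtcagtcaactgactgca

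The tags of the members were well separated. Every one of the 100000 long parts in the list consists of 15 pairs of bases drawn from AC, CA, GT and TG, which fixes the GC content of the long part at 50%. The GC content of the members' short parts ran from 35.7% to 57.1%, within the 28.6% to 78.6% of the 100 designed short parts, and its median of 50% was also that of the barcodes of 10 or more cells. Each member differed from the nearest other barcode called in any library at 14 to 22 of the 48 positions. From the nearest of the 27 barcodes called in eribulin multiome nuclei it differed at 18 to 28 positions. Within the list, the long part nearest to that of a member differed at 8 positions in all 22 cases. No long part of a member was called with another short part.

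The 22 members used 17 short parts. Short part 52 was shared by 4 members, and these were all of the barcodes with short part 52 among the barcodes of 10 or more cells. Over all short parts, 22 of the 125 barcodes of 10 or more cells were members. Together the 4 members with short part 52 had 111 untreated cells, of which 68 (61.3%, exact 95% binomial interval 51.5 to 70.4) lay in cluster 3. The rule chose each of the 4 for cluster 3, so this share describes the choice. The long parts of the 4 differed from each other at 20 to 28 of 30 positions. The 8 smaller barcodes with short part 52 had 8 of 26 cells in cluster 3 (30.8%, 14.3 to 51.8), against 32.4% of the cells of all 359 barcodes with fewer than 10 cells. Short parts 69 and 75 were shared by 2 members each, but other barcodes of 10 or more cells with short part 69 were based in clusters 2 and 9, and others with short part 75 in cluster 2. The short parts were singled out after their values were seen.

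The lineages differed 8-fold in size, from 10 to 80 untreated multiome cells, with a median of 14.5. Together they held 491 cells, which is 10.3% (9.44 to 11.2) of the called untreated multiome cells and 5.12% of all 9583. All intervals are exact binomial (Clopper-Pearson) intervals at 95% and cover counting error only. The 4 largest members, with 234 cells, made up 47.7% of the 491. Barcode 69-89668 was the largest with 80 cells (1.68% of called cells, 1.33 to 2.08), followed by 52-92557 with 69 (1.45%, 1.13 to 1.83). Barcode 75-57211 had 50 cells (1.05%) and 61-63448 had 35 (0.733%). There was then a drop to 54-66684 with 21 cells and 65-15834 with 20, and 11 of the 22 members had 10 to 14 cells.

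All of these members were at 0 in the other 3 libraries. The smallest member inside the size limit, 69-97343, had 10 cells, 7 of them in cluster 3. Just outside that limit were 7 barcodes of 9 cells that otherwise met the rule, with 4 to 8 of their cells in cluster 3.

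Cluster 3 itself was a mixture of many lineages. It held 1762 untreated multiome cells (18.4% of the library), of which 921 had 1 called barcode. These 921 cells carried 298 distinct barcodes. The 22 members supplied 320 of them (34.7%, 31.7 to 37.9). Barcodes of 10 or more cells that were based in other clusters supplied 219 (23.8%), and barcodes of fewer than 10 cells supplied 365 (39.6%, 36.5 to 42.9). Small barcodes were less common outside the cluster, where they held 19.8% (18.6 to 21.1) of the called cells.

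Within the members, 320 of 491 cells (65.2%, 60.8 to 69.4) lay in cluster 3, whereas 14% of the other called cells did. The rule picked the cluster on these same cells, so the difference is a description of the choice. The share per lineage ran from 33.3% to 82.9% with a median of 64.0%. It was highest in 61-63448, with 29 of 35 cells (82.9%, 66.4 to 93.4), and next among the large lineages in 69-89668, with 60 of 80 (75%, 64.1 to 84.0). Barcode 75-57211 had 36 of 50 cells in the cluster (72.0%, 57.5 to 83.8) and 52-92557 had 47 of 69 (68.1%, 55.8 to 78.8). The intervals of these 4 overlap.

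The lineages of 15 to 21 cells were more spread. After the 4 largest, which pooled to 73.5% (67.4 to 79.0), the 7 members of 15 to 21 cells pooled to 50.4% (41.3 to 59.5), and the 11 members of 10 to 14 cells to 64.4% (55.6 to 72.5). The lowest share was that of 52-59099, with 6 of 18 cells (33.3%, 13.3 to 59.0). Barcode 54-66684 had 10 of 21 (47.6%) and 65-15834 had 10 of 20 (50.0%). Cluster 3 held over 50% of the cells in 16 of the 22 members (72.7%). Among all barcodes of 10 or more cells the main cluster held over 50% in 85.6%, and among the 85 barcodes lost from other clusters in 75, or 88.2%. The median share in the main cluster, 64.0% in the members, was 60.0%, 62.1% and 54.5% in lost barcodes based in clusters 8, 6 and 14. In those based in clusters 2, 9 and 16 it was 72.9%, 71.9% and 71.2%. The lower bound of the share in cluster 3 lay above 50% in 4 members and above that cluster's 18.4% of the library in 19.

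The name "based in cluster 3" is weak for 3 members. Barcode 21-41964 had 6 of 15 cells in cluster 3 and 6 in cluster 8, and 37-59849 had 4 of 11 cells in cluster 3 and 4 in cluster 14, so both entered through the rule for ties. Barcode 52-59099 had 6 cells in cluster 3 and 5 in cluster 2. No lost barcode with another main cluster came within 1 cell of belonging to cluster 3.

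Outside cluster 3 the lineages were found in several other untreated clusters. Each member occupied 3 to 8 clusters, with a median of 5. Cluster 2 was the most usual second cluster: it was second or tied for second in 13 members, and 21 of 22 had at least 1 cell in it. Clusters 6 and 8 each had cells of 16 members, and cluster 9 had cells of 11. Barcode 69-89668 had 8 cells in cluster 8 (10.0%) and 5 in cluster 2, 52-92557 had 7 in cluster 6 (10.1%) and 5 in cluster 9, and 75-57211 had 4 in cluster 2. A second cluster with at least 30% of the cells was present in 3 members, 21-41964 and 37-59849 with their ties and 52-78401, with 4 of 13 cells (30.8%) in cluster 2.

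Among the 171 member cells outside cluster 3, the share in cluster 8 was larger and that in cluster 2 smaller than among other called cells outside it. Cluster 8 had 41 of the 171 (24.0%, 17.8 to 31.1), against 13.3% (12.2 to 14.4) of the 3680 other called cells outside cluster 3. Cluster 2 had 54 (31.6%, 24.7 to 39.1), against 45.3% (43.7 to 47.0). The shares of cluster 6 (17% and 18.2%), cluster 9 (9.94% and 12%) and cluster 14 (8.19% and 6.33%) lay close together. Leaving out each of the 4 largest members in turn kept the cluster 8 share between 21.9% and 24.8% and the cluster 2 share between 31.5% and 33.6%. Cells of 1 library are not replicates, and other barcodes were often based in cluster 2 themselves, so no test was made.

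A few untreated member cells lay in clusters made up mostly of eribulin-treated cells. Clusters 0 and 10 held 5 of the 491 cells (1.02%, 0.331 to 2.36), 3 in cluster 0 and 2 in cluster 10, and they came from 5 lineages. In other called untreated cells the eribulin clusters apart from cluster 15 held 26 of 4281 (0.607%, 0.397 to 0.889), and the intervals overlap. The 5 cells were from 48-83724, 52-78401 and 65-15834 in cluster 0 and from 54-66684 and 69-89668 in cluster 10. Those of 52-78401 and 65-15834 were shallow, with 1135 and 1104 cut sites in peaks. Cluster 15, which mixes both treatments, held another 6 member cells, with a median nucleosome signal of 1.29.

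Sequencing depth, counted as Tn5 cut sites in peaks per cell, was similar in member cells and other called cells. The median was 5314 (quartiles 3319.5 and 7851.5) in the 491 member cells and 5446 (3686 and 8496) in the other 4281 called cells. Lineage medians ran from 3436.5 in 65-15834 to 10045 in 75-87979, which has 13 cells, with quartiles of 4234 and 13959. In the 4 largest lineages they were 4632 in 69-89668, 4455 in 52-92557, 5374 in 75-57211 and 5348 in 61-63448. The median of the lineage was below that of the other called cells in 14 of 22 members. Called cells as a whole were deeper than cells without a call, whose median was 4741.

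Inside cluster 3 the member cells were shallower than the cells of other barcodes. They were not shallower than the 643 untreated multiome cells there without a call, whose median was 4515. The 320 member cells there had a median of 4824.5 cut sites, against 5669 in the 601 cells of other barcodes, a difference of -844.5, and the quartile ranges overlap (3234 to 7578.5 and 3669 to 9132). It rested in part on the biggest lineages and was -496 without 69-89668 and -488 without 52-92557. The medians of the cluster 3 cells were below 5669 in 15 of 22 members. Member cells outside cluster 3 had a median of 5853. In 8 of the 11 members with at least 15 cells the cells in cluster 3 were shallower than those outside. In 69-89668 the medians were 4185.5 in and 6191.5 outside the cluster, and in 52-92557 they were 4275 and 6210.5. The reverse held in 21-41964, with 10952.5 and 6609, and in 54-66684 and 65-15834.

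The share in cluster 3 was lower in the deeper cells. When cells were placed in the 4 equal bins of the library's cut sites, cluster 3 held 68.6% of 137 member cells in the lowest bin (60.1 to 76.3) and 71.7% of 106 in the second (62.1 to 80). It held 62.2% of 127 in the third (53.2 to 70.7) and 58.7% of 121 in the highest (49.4 to 67.6). These intervals overlap. For the library as a whole the share in cluster 3 was 19.7%, 17.2%, 18.3% and 18.3% in the same order. Whether depth or undetected mixtures of cells bear on the cluster of a member cell was not tested.

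The nucleosome signal compares DNA fragments that span 1 nucleosome with shorter ones from nucleosome-free stretches, and a lower value means more of the short ones. Its median was 0.883 (quartiles 0.793 and 0.965) in the members and 0.910 (0.817 and 1.01) in the other called untreated multiome cells. The quartile ranges overlap almost completely. The lineage median was below 0.910 in 18 of 22 members, and ran from 0.80 in 52-78401 to 0.954 in 75-87979. Among the 6 largest it was 0.909 in 69-89668, 0.889 in 52-92557, 0.886 in 75-57211, 0.866 in 61-63448, 0.917 in 54-66684 and 0.838 in 65-15834.

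The difference was not the same in every cluster. Within cluster 3 the members had a median of 0.883 and the other barcodes 0.863, so the direction of the difference was reversed, at 0.019. It was 0.010 without 69-89668, and the medians of the cluster 3 cells were above 0.863 in 13 of 22 members. Outside cluster 3 the member cells had a median of 0.893 and other called cells 0.920. In cluster 2 the medians of member cells and other called cells were 0.922 and 0.979. They were 0.876 and 0.843 in cluster 6, and 0.895 and 0.897 in cluster 8. In all of these sets the quartile ranges overlap. The enrichment of cuts at transcription start sites was 5.0 in member cells and 5.01 in other called cells, with lineage medians from 4.73 to 5.28.

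On the UMAP, a map of the authors that places cells of like accessibility near each other, lineages inside cluster 3 were only loosely gathered. Among the 921 called cells of the cluster, the 10 nearest neighbours of a 69-89668 cell were of the same barcode in 8.67% of cases, and 6.41% of the other cells had that barcode. For 52-92557 the values were 5.32% and 5%, for 75-57211 4.17% and 3.80%, and for 61-63448 4.14% and 3.04%. The neighbour share was the larger in 8 of the 10 members with at least 10 cells in cluster 3, though in 65-15834 and 29-73180 it was 1% against 0.978%. The ratio was highest in 3-58861, at 4.18 with 11 cells, and 0 in 48-83724 and 51-65235. The median distance to cells of the same barcode was smaller than that to other cells in 7 of these 10 members. It was larger in 69-89668 (2.98 and 2.94), 54-66684 (3.51 and 2.96) and 51-65235 (2.75 and 2.70). The map was made from the same peaks as the clusters.

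After eribulin none of the 22 lineages was called in the 1391 multiome nuclei with 1 barcode. This is what the rule asked for. Of all barcodes with 10 or more untreated cells 85.6% were absent in the same way, and of the 24 based in cluster 3 22 were (91.7%), so absence was common to barcodes of all clusters. The share absent was 83.9% for barcodes based in cluster 2, 85.7% for cluster 6, 81.2% for cluster 8 and 80% for cluster 9. All 3 barcodes based in cluster 14 and both based in cluster 16 were absent.

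How much the 0 says depends on the size of the lineage. A count of 0 in 1391 allows a share of up to 0.216% (3 counts). At an unchanged share the 491 cells would correspond to 143 eribulin nuclei in all. Their pooled untreated share of 10.3% was 47.7 times the limit, and the lower end of its interval was 43.8 times the limit. For 69-89668 the unchanged share corresponds to 23.3 nuclei, and its untreated share was 7.77 times the limit, or 6.17 times at the lower end of its interval. The share was 6.70 times the limit for 52-92557 (5.22 at the lower end), 4.86 times for 75-57211 (3.61) and 3.40 times for 61-63448 (2.37), with 20.1, 14.6 and 10.2 nuclei at an unchanged share. These factors depend on which eribulin calls are counted. Among the 372 nuclei whose names carry the sequence the limit was 0.806%, and the share of 69-89668 was 2.08 times that limit, or 1.65 times at the lower end of its interval. The shares are also relative to all called nuclei. Of the 1391, barcode 76-49517 held 438, a barcode based in cluster 6 held 403 and 55-23349 held 146. A lower share of a lineage can therefore go with more nuclei of other lineages as well as with fewer of its own, which was not tested.

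For most of the smaller lineages the 0 says less. The measured untreated share lay above the limit in 21 of the 22 members. The lower bound of the untreated share lay above the limit in 8 of the 22 members, those with 18 or more cells, against 58.4% of the barcodes of 10 or more cells. In 52-59099, the smallest of the 8, the lower bound was 0.224%, in 48-83724 it was 0.240% and in 65-15834 0.256%. All of these lie below 0.265%, the end of the exact interval for this count of 0, so the count of 8 depends on the limit chosen. With the limits from the names with hyphens alone or with the sequence alone, a choice added after the data were seen, the 8 members became 4 and 2. In the other 14 members the interval of the untreated share includes the limit, although the measured share was above it in 13. For these 14 the comparison of a lower bound with a limit is strict and cannot decide whether the share was lower after eribulin. Their untreated and eribulin counts were not compared directly. For 16 members the unchanged share corresponds to 3 to 6 nuclei, and for 69-97343 to 2.91. Since members were picked for a count of 0, these values describe the choice, and no test was made.

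The 2 scATAC libraries were not used by the rule and add little. No member was called in the 29 untreated scATAC cells, where the limit of 3 counts is a pooled share of 10.3%. None was called in the 84 eribulin scATAC cells either, where that limit is 3.57%. The exact intervals end at 11.9% and 4.30%. The members' multiome share would correspond to 2.98 and 8.64 cells. The eribulin limit lies below the 10.3% of the untreated multiome library, but the untreated scATAC library had no member cell either, so a difference between treatments was not detectable in scATAC.

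The set of all 24 barcodes based in cluster 3, which the eribulin counts did not help to choose, held a similar share of both multiome libraries. It had 520 of the 4772 called untreated cells (10.9%, 10.0 to 11.8) and 147 of the 1391 called eribulin nuclei (10.6%, 9.0 to 12.3), a ratio of 0.970. Of the 147 nuclei, 146 carried 55-23349, which had 19 untreated cells (0.398%, 0.240 to 0.621), and 1 carried 38-7217, which had 10. Without 55-23349 the other 23 barcodes had 10.5% of the untreated cells and 0.072% (0.002 to 0.400) of the eribulin nuclei. For barcodes based in the other clusters the ratio of eribulin to untreated share was 0.249 in cluster 2, 2.56 in cluster 6, 0.033 in cluster 8 and 0.021 in cluster 9. Barcodes based in clusters 14 and 16, with 214 and 32 untreated cells, had 0 eribulin nuclei. In cluster 6, too, 403 of 405 nuclei were of 1 barcode. Each condition is 1 library, so these ratios carry no error between cultures.

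Before treatment 55-23349 resembled the spread-out members. It had 8 of 19 cells (42.1%) in cluster 3, 4 in cluster 6, 3 in cluster 8, and 2 each in clusters 2 and 9. The shares of 52-59099, 37-59849, 21-41964 and 99-60522 in cluster 3 were lower, at 33.3% to 41.2%. Its median nucleosome signal of 0.822 lay inside the range of the members' medians, and its median of 3297 cut sites lay below all of theirs. After eribulin its 146 nuclei had a nucleosome signal of 0.666, like the 0.668 of the whole eribulin multiome library, and 122 of them (83.6%) lay in cluster 0 and 0 in cluster 3. In scATAC it was called in 30 eribulin and 0 untreated cells. Barcode 38-7217 had 9 of 10 untreated cells in cluster 3, a higher share than any member, and its 1 eribulin nucleus lay in cluster 0.

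Cluster 3 was almost empty after eribulin. It held 14 of 8114 eribulin multiome nuclei (0.173%), of which 4 had a called barcode. These were 3 nuclei of 76-49517 and 1 of 71-88522, neither of them a barcode based in cluster 3 with 10 or more untreated cells.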

How the data were processed

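Accessible chromatin was measured in 4 libraries, and the barcodes were chosen on the 2 multiome libraries. The members and the comparisons were chosen with earlier results of these data known. Per the series' design text, peak counts were made by the authors with Cell Ranger ATAC 1.2.0 (run 1) and Cell Ranger ARC 1.0.0 (run 3) on mm10, and cells were filtered and clustered with Signac 1.1.1. The method of barcode calling and of integrating libraries is not stated in those sources. Cut sites in peaks, detected peaks and detected genes were deposited as unnormalized counts per cell. Nucleosome signal and TSS enrichment, per the file headers, are each a ratio computed by the authors in every cell. UMAP positions, as deposited, are a score with no unit. Total cut sites were 61629245 in untreated and 49446970 in eribulin multiome, and 84615925 and 127710435 in scATAC.

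Barcode names were brought to 1 form by the 2 part numbers. Barcode counts leave out cells without a single call, which in untreated multiome were 3890 negative cells, 669 doublets, 196 multiplets and 56 unmapped cells. Shares, medians and quartiles were computed with Python 3.11.15, pandas 2.3.3, numpy 2.4.6 and scipy 1.17.1. Shares have exact 95% binomial intervals, and a count of 0 is given a limit of 3 counts, which lies below the upper end of the exact interval. Groups have 1 library each, so no test was made. Described in full are the 6 largest members, those with the highest and lowest share in cluster 3 or with a second cluster of at least 30%, and barcodes at the limits of the rule. The search for members was run on simulated data, where 22 of 22 known lost barcodes based in cluster 3 were found among 120 barcodes and none wrongly. Every simulated barcode had at least 70% of its cells in its main cluster and no tie, as have 7 of the 22 real members. The run therefore checks the code and says nothing about members with a lower share or a tie. Alternatives changed the size limit, the rule for the main cluster, the depth of cells, the form of names and the cells compared.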

Additional observations from a re-analysis of the deposited data

How the results depend on the processing

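With a minimum of 5 untreated cells 48 barcodes met the rule, with 20 cells 6, and with only cells at or above the median of cut sites 9; all 22 members were among the 48, and the 6 and the 9 were all members. Asking for over 50% in cluster 3 left 16, dropping ties left 20, and asking for absence from both eribulin libraries left 22. The pooled share in cluster 3 was 60.5% in cells at or above the median of cut sites and 69.96% in cells below it. The members' share of untreated cells was 5.12% with all cells as denominator and 8.61% without the largest member. The limit for 0 eribulin nuclei was 0.294% among names with hyphens and 0.806% among names with the sequence, and the lower bound of the untreated share lay above these limits in 4 and 2 members, against 8 with all names. The difference in median cut sites, -132 over all called cells, was -844.5 within cluster 3. The difference in median nucleosome signal, -0.027, was -0.041 with the median of lineage medians and reversed to 0.019 within cluster 3; the cause was not tested. The alternatives for the count of 8 and the following ones were added after the data were seen. Without the members tied between clusters the pooled share in cluster 3 was 66.7%. Without the largest member the differences over all called cells were -94 cut sites and -0.033 in nucleosome signal, and within cluster 3 they were -496 and 0.010. With 1 library per group no replicate could be left out.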
